A study of Mus musculus with 18 samples.

Results

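The 8 genes described here encode the Fos and Jun proteins and Atf3, which pair through leucine zippers to form the transcription factor AP-1. They were taken by symbol from the 27179 genes of the count table: Fos, Fosb, Fosl1 and Fosl2 of the Fos family, Jun, Junb and Jund of the Jun family, and Atf3. All 8 were found, and 7 passed the filter on low counts. RNA was sequenced from half-brain tissue of 18 C57BL/6J mice of wild-type genotype, dosed by mouth every day for 14 days from 4 months of age, and perfused some hours after the last dose. The groups were vehicle, which was the neutralised sodium hydroxide solution alone (2 males and 3 females), and the same solution carrying glyphosate, the active compound of a common herbicide, at 125 mg/kg (3 males and 2 females), 250 mg/kg (3 males and 1 female) or 500 mg/kg (2 males and 2 females). Each library is 1 mouse, named here by its G number. The comparison asks how the level of each gene differed with dose. The study's background section names hippocampus where its methods name half-brain, and the methods are followed here.

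AP-1 is the classic product of immediate early genes, which are transcribed within minutes of a stimulus without new protein being made first. In brain, neuronal firing raises calcium and cyclic AMP in the cell, kinases then phosphorylate CREB, Elk1 and SRF on the Fos promoter, and Fos mRNA appears and is degraded again quickly. Fos proteins bind DNA only as partners of Jun proteins, whereas Jun proteins also pair with one another, and Atf3 pairs with Jun proteins and is known as a gene of cell stress and nerve injury. Fos and Junb mRNA are widely used as marks of recently active neurons, while Jund is made steadily in most cells.

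The RefSeq promoter windows of the GRCm38.p6 assembly were read for 7 of the 8 genes, and no window was matched for Fosl1. The 4 shown are the 250 bases before the start of Fos and Junb, whose dose slopes were the steepest, of Fosb, which carries the same letters, and of Jun, which carries different ones. They are Fos at chr12:85473640-85473889 on the plus strand, and Fosb at chr7:19310046-19310295, Junb at chr8:84978749-84978998 and Jun at chr4:95052223-95052472 on the minus strand. Capitals mark TGACG, the half-site of the cyclic AMP response element (CRE) bound by CREB, and in Jun TGACATCA, a site of the ATF type.
Fos: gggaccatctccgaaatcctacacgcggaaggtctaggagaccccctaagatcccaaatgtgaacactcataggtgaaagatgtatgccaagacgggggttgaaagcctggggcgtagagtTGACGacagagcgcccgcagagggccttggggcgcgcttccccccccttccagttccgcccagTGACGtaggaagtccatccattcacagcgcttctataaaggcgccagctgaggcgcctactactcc
Fosb: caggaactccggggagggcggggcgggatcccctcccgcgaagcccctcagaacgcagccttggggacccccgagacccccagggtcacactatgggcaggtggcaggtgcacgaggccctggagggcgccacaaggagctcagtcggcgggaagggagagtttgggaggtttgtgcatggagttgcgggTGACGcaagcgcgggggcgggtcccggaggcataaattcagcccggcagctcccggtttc
Junb: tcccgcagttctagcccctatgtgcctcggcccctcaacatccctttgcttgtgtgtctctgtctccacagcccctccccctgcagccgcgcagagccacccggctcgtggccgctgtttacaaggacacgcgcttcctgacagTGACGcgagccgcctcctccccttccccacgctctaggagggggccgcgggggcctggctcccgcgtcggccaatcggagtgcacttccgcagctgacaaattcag
Jun: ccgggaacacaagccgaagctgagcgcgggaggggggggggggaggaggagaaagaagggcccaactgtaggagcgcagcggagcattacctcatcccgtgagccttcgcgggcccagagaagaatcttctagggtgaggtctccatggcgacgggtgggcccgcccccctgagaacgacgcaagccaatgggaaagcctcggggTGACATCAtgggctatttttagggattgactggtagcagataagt
The half-site lay 129 and 66 bases before the start of Fos, counted to its first base, 60 bases before that of Fosb and 106 bases before that of Junb. It was also found in the Atf3 window, on the opposite strand, so that 4 of the 7 windows held it on either strand, against 17.8% of the 32851 mouse promoter windows of the same length. The ATF-type site of Jun began 45 bases before its start and was found in 2.93% of windows. Neither the full CRE (TGACGTCA), which contains the half-site, nor the AP-1 site (TGANTCA), nor the CArG box bound by SRF was matched in any of the 7 windows, against 1.55%, 6.75% and 1.47% of all windows. These are matches of letters in a short window, not measured binding, and sites more than 250 bases before the start were not looked for. The windows lie before RefSeq starts, which are not always the ends of the gene spans given below from the GENCODE annotation. The windows of Jund (chr8:70697489-70697738) and Junb lie before their spans without adjoining them, and the Fosb window overlaps its span in part. Those of Fosl2 (chr5:32136222-32136471) and Atf3 (chr1:191183334-191183583) lie inside theirs.

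Total counts per mouse ran from 3948096 to 11732885 with a median of 7789800. Levels are CPM, the reads of a gene per fixed total of reads, after scaling by TMM, a method that equalises libraries on the bulk of their genes. Mice G4 (500 mg/kg) and G9 (vehicle) stood apart: their median correlation with the other libraries was 0.943 and 0.942, against 0.959 to 0.975 in the other 16, and their mean level of 12 glutamatergic neuron markers was 3.89 and 3.85 on the log2 scale, against 5.74 to 7.51. The G numbers otherwise rise with dose, and G4 falls among those of the vehicle mice. Its label of 500 mg/kg was used as given, and its tag number, 44, was shared only with G79, also labelled 500 mg/kg. Over all genes edgeR called 46 in the dose slope, 2 without G4 and 2 without both mice. The dose slopes, the differences at 500 mg/kg for Fos and Junb and the correlations below are therefore also given without G4 and G9. None of the markers fixed for neurons, glia and vessels was at 0 in any dose group, while up to 3 of the 4 red blood cell markers were.

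Per length of exon, Jund was the most abundant of the 8 genes, at 196 ± 37.1 CPM per kb (SD, n = 18). Junb followed at 58.8 ± 31.4, Jun at 26.4 ± 4.66 and Fos at 25.9 ± 11.7 CPM per kb. Fosl2 at 8.11 ± 3.35, Fosb at 3.92 ± 1.77 and Atf3 at 1.06 ± 0.497 CPM per kb were lower. The order held mouse by mouse for Jund over Junb, Fos over Fosl2 and Fosl2 over Fosb, each in 18 of 18 mice. Jun and Fos did not separate, with Jun above Fos in 11 of 18 mice, and Junb exceeded Jun in 15 of 18. Fosl1, a Fos family gene known mainly from epithelial and migrating cells, gave 18 reads in all, 0 to 4 per library. It had no read in 9 of the 18 libraries, where a count of 0 allows up to 0.316 to 0.740 CPM for counting error alone, and it was not tested.

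**Figure D1:**
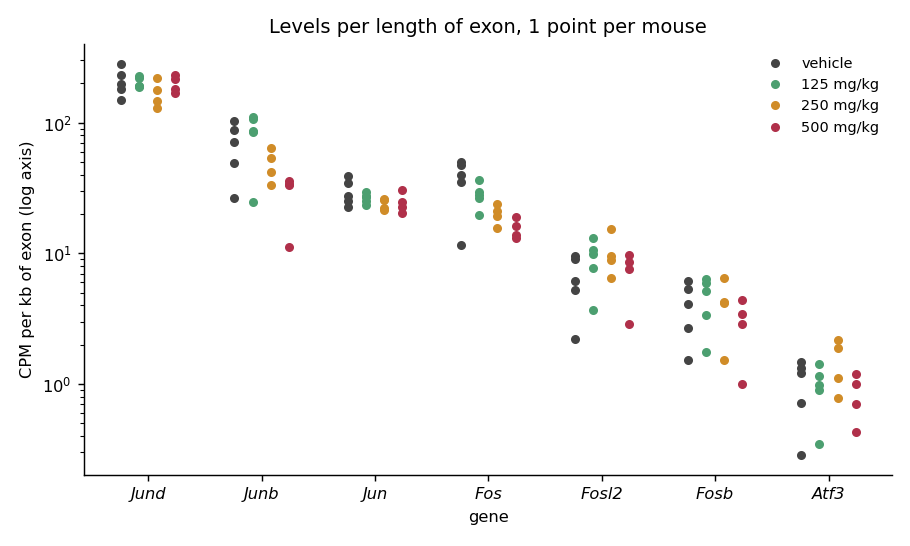
Level of the 7 tested genes in CPM per kb of exon (log axis), 1 point per mouse, coloured by dose group. Jund lies above every other gene in all 18 mice, and the spread between mice is narrow for Jund and Jun and wider for Junb, Fos, Fosl2, Fosb and Atf3.

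Fos, the founding member of the family and the one most often read as a trace of neuronal activity, lies at chr12:85473890-85477273 on the plus strand. In the 5 vehicle mice it stood at 27.1, 82.5, 94.0, 112 and 118 CPM. At 125 mg/kg the 5 mice held 45.9, 62.8, 66.1, 69.4 and 85.5 CPM. Of the vehicle mice 3 lay above all of these, G9 lay just under the highest, and G1 lay below them all. At 250 mg/kg the 4 mice held 36.8, 45.6, 49.6 and 56.3 CPM, and at 500 mg/kg they held 30.6, 32.8, 38.3 and 44.9 CPM. All 4 mice at 500 mg/kg were below 12 of the 14 other mice, the exceptions being G1, the lowest of all 18, and G71 at 250 mg/kg. The group means were 86.7 ± 36.2, 66 ± 14.2, 47.1 ± 8.13 and 36.7 ± 6.40 CPM from vehicle to 500 mg/kg (SD, n = 5, 5, 4 and 4). The dose slope, the log2 change per 500 mg/kg with sex as a covariate, was -1.23 ± 0.274 (SE, 95% interval -1.80 to -0.65), which puts the level at 500 mg/kg at 42.7% of vehicle. In edgeR's quasi-likelihood test the unadjusted p was 0.000246. The adjusted p = 0.058 over the 15863 genes tested did not pass the threshold of 0.05.

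The Fos call turned on the test and on which mouse was left out. DESeq2 gave nearly the same slope, -1.23 ± 0.278, and an adjusted p of 0.00456, and limma-voom gave -1.11 ± 0.293 with an adjusted p of 0.111. Without vehicle mouse G1 the slope was -1.40 ± 0.196 and passed in edgeR (adjusted p = 0.00399), and without G45 at 125 mg/kg it was -1.26 ± 0.274 and also passed (adjusted p = 0.0473). Without G4 it was -1.16 and without G5 -1.06, with adjusted p of 0.348 and 0.162. Without both G4 and G9 it was -1.18 ± 0.319 (adjusted p = 0.231). Its sign was negative in each of the 32 alternative fits, over a range of -1.56 to -1.06, and its unadjusted p was at most 0.0411 in them.

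At 500 mg/kg against vehicle the Fos difference was -1.21 ± 0.298 on the log2 scale (adjusted p = 0.15 in edgeR, 0.0135 in DESeq2). It was -0.79 ± 0.305 at 250 mg/kg (unadjusted p = 0.0184, adjusted p = 1) and -0.34 ± 0.275 at 125 mg/kg (adjusted p = 0.656). These 3 comparisons share the vehicle mice. Without G1 the difference at 500 mg/kg was -1.46 ± 0.194 (adjusted p = 0.012), and without G4 and G9 it was -1.16 ± 0.351 (adjusted p = 0.424). The slope was -1.36 ± 0.233 in the 8 females and -1.10 ± 0.459 in the 10 males, and the difference between the sexes, 0.25 ± 0.543 for male minus female, did not pass (adjusted p = 1). Tag numbers 43 and 46, which the sample titles give for the mice, held vehicle and treated mice. Under tag number 46 the vehicle females stood at 82.5 and 118 CPM and the 500 mg/kg males at 30.6 and 38.3, and under tag number 43 the vehicle female stood at 94.0 CPM and the 125 mg/kg males at 45.9 to 85.5. In both, sex and dose cannot be told apart. With the tag number as a block the slope was -1.52 ± 0.679 (adjusted p = 1).

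**Figure D2:**
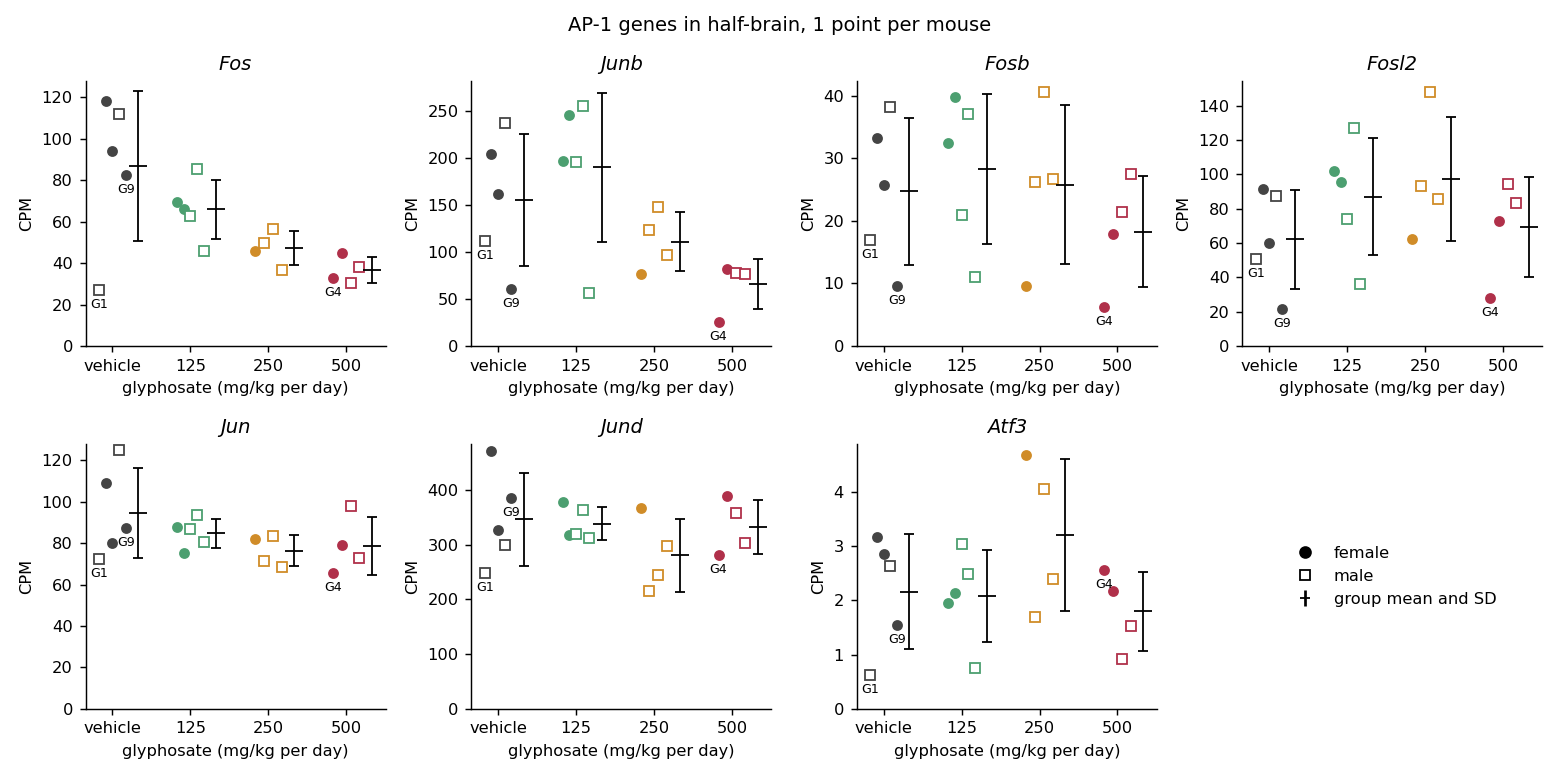
CPM of the 7 tested genes in each mouse by dose (filled circles females, open squares males), with the group mean and SD beside the points and mice G1, G4 and G9 labelled. The 4 mice at 500 mg/kg lie at 30.6 to 44.9 CPM for Fos and at 25.7 to 81.8 CPM for Junb, in each case below 4 of the 5 vehicle mice.

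Junb (chr8:84974484-84978718, minus strand) encodes the Jun protein that is induced with Fos and partners it after stimulation. Its exons overlap the opposite-strand gene Prdx2 in GENCODE, as those of Jun do Junos, Jund Gm11175 and Fosl1 Ccdc85b, and since the strand setting of the counting is not given in the sources used here, reads of such pairs may not be told apart. No other gene overlaps the exons of Fos, Fosb, Fosl2 or Atf3. The 5 vehicle mice held 60.8, 112, 162, 204 and 237 CPM. The 5 mice at 125 mg/kg held 56.6, 196, 197, 246 and 255 CPM. At 125 mg/kg 4 of 5 mice thus stood above 3 of the 5 vehicle mice, 2 of them above every vehicle mouse, and G45 stood below all vehicle mice. The 4 mice at 250 mg/kg held 76.9, 96.6, 123 and 148 CPM, and the 4 at 500 mg/kg held 25.7, 77.1, 77.9 and 81.8 CPM. Again 4 of the 5 vehicle mice lay above every mouse at 500 mg/kg, the exception being G9 at 60.8 CPM, and so did 11 of all 14 other mice. The slope, -1.48 ± 0.455, was the steepest of the 7, with a 95% interval of -2.43 to -0.53. It did not pass in edgeR (unadjusted p = 0.00413, adjusted p = 0.174) or in DESeq2 (adjusted p = 0.0634).

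Unlike the group means of Fos, those of Junb were not in the order of dose, at 155 ± 70.3, 190.0 ± 79.4, 111 ± 31.1 and 65.6 ± 26.7 CPM (SD, n = 5, 5, 4 and 4). Set against vehicle on the log2 scale, Junb differed by 0.28 ± 0.394 in the 125 mg/kg group, by -0.56 ± 0.439 in the 250 mg/kg group and by -1.27 ± 0.435 in the 500 mg/kg group (adjusted p = 0.821, 1 and 0.292, edgeR). Without the 500 mg/kg mice the slope was -0.86 ± 0.964 for Junb and -1.56 ± 0.644 for Fos. Without G4 the Junb slope was -1.17, and without both G4 and G9 it was -1.35 ± 0.390 (adjusted p = 0.244), with a difference at 500 mg/kg of -1.18 ± 0.391 (adjusted p = 0.461).

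**Figure D3:**
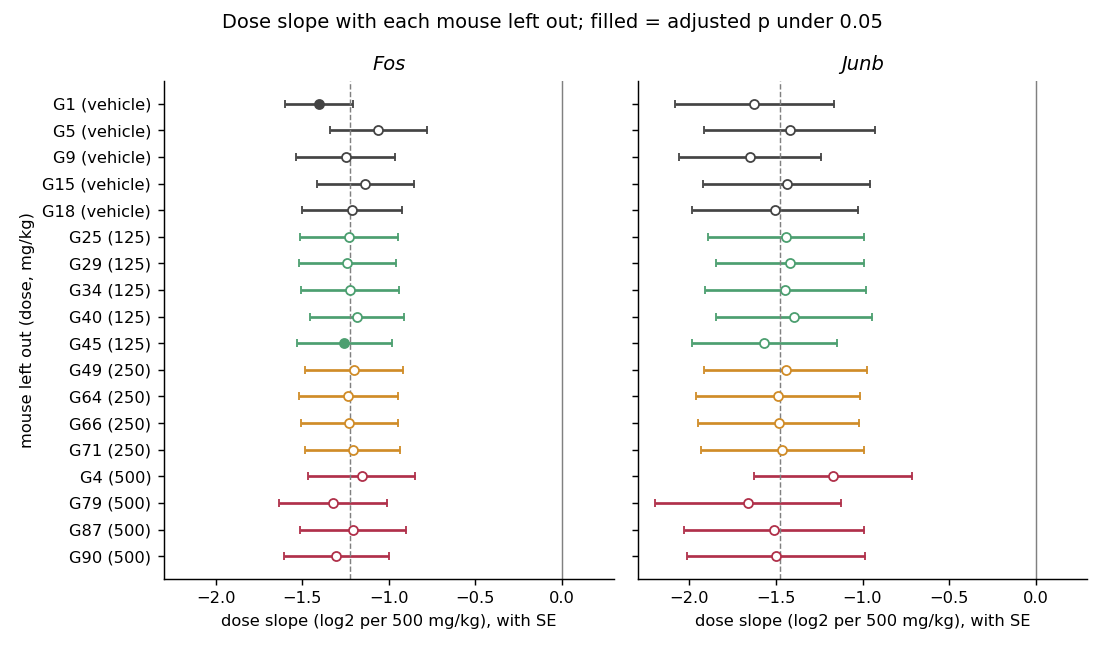
Dose slope of Fos and of Junb with its SE when each of the 18 mice is left out in turn (rows, coloured by dose), filled where the adjusted p in edgeR is under 0.05; the dashed line is the slope over all mice. Fos stays between -1.40 and -1.06 and is filled without G1 and without G45, and Junb stays between -1.66 and -1.17 and is never filled.

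Fosb, whose short splice form is the stable DeltaFosB protein that builds up on repeated stimulation, lies at chr7:19302696-19310051 on the minus strand. Its vehicle mice held 9.53, 16.9, 25.7, 33.2 and 38.2 CPM, and the 500 mg/kg mice 6.30, 17.9, 21.4 and 27.4 CPM. The groups overlapped, with 2 of the 5 vehicle mice above every mouse at 500 mg/kg. Mice at 125 mg/kg held 11.0, 21.0, 32.4, 37.1 and 39.8 CPM and those at 250 mg/kg 9.62, 26.2, 26.6 and 40.6 CPM. The slope was -0.59 ± 0.453, with an interval of -1.53 to 0.36 (adjusted p = 0.611, edgeR), and without G4 and G9 it was -0.40 ± 0.405 (adjusted p = 0.729). Gene counts do not separate the splice forms of Fosb.

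Fosl2 (chr5:32135801-32157842, plus strand), another Fos family gene, held 21.5, 50.5, 59.8, 87.3 and 91.6 CPM in vehicle mice and 27.9, 72.9, 83.1 and 94.3 CPM at 500 mg/kg. The 125 mg/kg mice held 36.0, 74.2, 95.5, 102 and 127 CPM and the 250 mg/kg mice 62.6, 85.5, 93.1 and 148 CPM. No vehicle mouse lay above the highest mouse at 500 mg/kg. The slope was 0.02 ± 0.425 (interval -0.87 to 0.90, adjusted p = 0.993, edgeR), and its sign turned with the mouse left out. Without G4 and G9 it was 0.17 ± 0.345 (adjusted p = 0.881).

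Within the Fos family, counted per kb of exon, Fos held 76.3% ± 11.3, 68.4% ± 5.91, 59.4% ± 8.29 and 62.0% ± 12.5 of the family's level from vehicle to 500 mg/kg (SD, n = 5, 5, 4 and 4). Fosl2 held 14.7% ± 7.56, 20.8% ± 3.58, 28.8% ± 4.2 and 27.0% ± 8.67. The lowest mean share of Fos and the highest of Fosl2 were at 250 mg/kg, so neither was in the order of dose. These shares add up within a mouse, so that one rises where another falls, and they were not tested.

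Jun (chr4:95049034-95052222, minus strand) encodes the Jun protein activated by the stress kinase JNK. It stood at 72.4, 80.0, 87.3, 109 and 125 CPM in vehicle mice and at 75.0, 80.5, 86.8, 87.7 and 93.6 CPM at 125 mg/kg. At 250 mg/kg it stood at 68.4, 71.4, 81.9 and 83.5 CPM, and at 500 mg/kg at 65.4, 72.7, 79.1 and 97.9 CPM. Only the 2 upper vehicle mice lay above every mouse at 500 mg/kg. The slope was -0.27 ± 0.147 (interval -0.58 to 0.04, adjusted p = 0.443, edgeR), and the difference at 250 mg/kg was -0.34 ± 0.157 (unadjusted p = 0.0433, adjusted p = 1). Its sign was negative in all 32 alternative fits of the slope, and without G4 and G9 the slope was -0.23 ± 0.17 (adjusted p = 0.62).

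Jund (chr8:70698949-70700616, plus strand), a Jun gene with no intron and the steady member of the family, ranged from 249 to 472 CPM in vehicle mice with a median of 327. It ranged from 313 to 378 at 125 mg/kg, from 215 to 367 at 250 mg/kg and from 281 to 389 CPM at 500 mg/kg. The groups overlapped throughout, and the slope of -0.05 ± 0.155 had an interval of -0.37 to 0.28 (adjusted p = 0.93, edgeR), so changes in level at 500 mg/kg to between 77.4% and 121% of vehicle were within it. Without G4 and G9 the slope was 0.06 ± 0.166 (adjusted p = 0.909). Of the Jun family level per kb, Junb held 21.9% ± 8.15, 25.6% ± 9.02, 20.7% ± 7.27 and 11.0% ± 3.70 from vehicle to 500 mg/kg (SD, n = 5, 5, 4 and 4), with its highest mean at 125 mg/kg. Jund held 68.3% ± 8.97, 65.8% ± 7.87, 69.3% ± 8.32 and 79.2% ± 3.55.

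Atf3 (chr1:191170296-191218039, minus strand) was low, at 4 to 33 reads per library. It ranged from 0.616 to 3.17 CPM in vehicle mice, from 0.755 to 3.05 at 125 mg/kg, from 1.69 to 4.69 at 250 mg/kg and from 0.920 to 2.57 CPM at 500 mg/kg. The slope was -0.10 ± 0.472, with an interval of -1.09 to 0.88 (adjusted p = 0.951, edgeR), so that levels at 500 mg/kg from 46.9% to 184% of vehicle were within it. Without G4 and G9 the slope was -0.27 ± 0.556 (adjusted p = 0.883).

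In the dose slope, then, 0 of 7 genes were called by edgeR and 6 of 7 had a negative sign, 2 of them, Fos and Junb, at an unadjusted p under 0.05. Over all 15863 genes edgeR called 0.0441% lower and 0.246% higher, 48.8% had a negative slope, 13.2% had an unadjusted p under 0.05 and the median slope was 0.01, against a median of -0.27 over the 7. DESeq2 called 1 of the 7, Fos, against 1.28% of its 17661 genes, and limma-voom called 0 against 0.315%. Without G1 edgeR called Fos alone among the members, against 0.152% of genes, and without G45 Fos alone, against 0.512%.

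The other comparisons gave the same picture of few calls. At 500 mg/kg against vehicle edgeR and limma-voom each called 0 of 7, against 0.0189% of genes, while DESeq2 called Fos against 1.05% and edgeR without G1 called Fos against 0.0506%. At 125 and at 250 mg/kg 0 of 7 were called by edgeR, against 0% of all genes, and 0 of 7 by DESeq2, against 0.174% and 0.104%. There, 0 of 7 members at 125 mg/kg and 2 of 7 at 250 mg/kg had an unadjusted p under 0.05 in edgeR, against 11.2% and 3.76% of all genes. For any difference among the 4 groups edgeR called 0 of 7 against 0.0441%. DESeq2 called Fos there against 3.16%, and edgeR without G1 called Fos against 0.12%. In that edgeR comparison Fos and Junb had an unadjusted p of 0.00433 and 0.0143, and 15% of all genes were under 0.05. No member's slope differed between the sexes by edgeR, where 0% of all genes were called. At an unadjusted p under 0.05 were 0 of 7 members, against 1.65% of all genes. No member had its 500 mg/kg mice all below or all above the vehicle mice, against 0.933% and 2.32% of all genes.

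The levels of Junb and Fosb correlated across mice with the level of glutamatergic neuron markers, which are genes of the excitatory cells of cortex and hippocampus. Without G4 and G9 the relation of Fosl2 passed by Pearson's r and not by Spearman's rho. Over all 18 mice it passed by both. For Fos, Jun, Jund and Atf3 it passed by neither in either set. Over all 18 mice r was 0.862 for Junb (rho 0.891), 0.855 for Fosb (rho 0.769) and 0.844 for Fosl2 (rho 0.703). The adjusted permutation p were 3.5e-05 and 7e-05 for Junb, 3.5e-05 and 0.00161 for Fosb, and 0.000303 and 0.0038 for Fosl2. For Fos r was 0.251 (rho 0.366, adjusted permutation p = 0.448 and 0.237). In bulk tissue, fewer cells of a type and less RNA per cell cannot be told apart. Over the 16 mice left after G4 and G9, which form a separate pair at the low end of the marker level, Pearson's r was 0.871 for Junb (Spearman's rho 0.853, permutation p = 2e-05 and 7e-05). It was 0.766 for Fosb (rho 0.674, permutation p = 0.00057 and 0.00525) and 0.570 for Fosl2 (rho 0.576, permutation p = 0.0202 and 0.0219). Adjusted over the 7 genes these were 0.00014 and 0.00049 for Junb, 0.00199 and 0.0184 for Fosb, and 0.0471 and 0.0511 for Fosl2. For Fos r was 0.444 (rho 0.459, permutation p = 0.0848 and 0.0752, adjusted 0.148 and 0.132), and for Jun, Jund and Atf3 it was 0.222, -0.172 and 0.119 (rho 0.141, -0.0971 and 0.0529, lowest permutation p = 0.412). Whether r differed between genes was not tested. After subtracting each dose group's mean, over the 16 mice, r was 0.813 for Junb, 0.811 for Fosb, 0.843 for Fosl2 and 0.167 for Fos, and over all 18 it was 0.866, 0.844, 0.915 and 0.084.

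The median of the marker sum was lowest at the highest dose, although no marker was called. All 12 glutamatergic markers had a negative slope, with a median of -1.12 and 0 of 12 called, and their summed level ran from 558 to 5750 CPM in vehicle mice (median 4490) and from 485 to 2860 at 500 mg/kg (median 2280). With their level as a covariate the Fos slope was -1.12 ± 0.276 (adjusted p = 0.151), and without the covariate it was -1.23. The Junb slope was -0.80 ± 0.224 (adjusted p = 0.213), the Fosb slope was 0.06 ± 0.265 (adjusted p = 0.957) and the Fosl2 slope was 0.73 ± 0.200 (adjusted p = 0.203). All 4 of these were short of the threshold in edgeR. The fit with this covariate was not run without G4 and G9, the 2 mice lowest in marker level. Of 5 tested midbrain dopamine neuron markers 2 rose, Slc6a3 and Ddc, against 0.246% of all genes, and without G4 and G9 only Slc6a3 passed. Of the other cell types no marker was called. All 6 markers of striatal projection neurons had a negative slope (median -1.67), as did all 6 of cerebellar neurons (median -0.72) and all 6 of choroid plexus (median -1.01), while the 9 oligodendrocyte markers had slopes of 0.13 to 1.01 (median 0.80). Without G4 and G9 these 4 medians were -1.53, -0.19, -0.02 and 0.38, and that of the glutamatergic markers was -0.96. The summed level of the striatal markers ran from 196 to 2500 CPM in vehicle mice and from 126 to 572 at 500 mg/kg. The summed oligodendrocyte level ran from 3940 to 7020 CPM in vehicle mice and from 5700 to 16000 at 500 mg/kg, and that of the dopamine markers from 20.2 to 104 and from 70.9 to 333. The part of these markers in the AP-1 values was not tested.

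**Figure D4:**
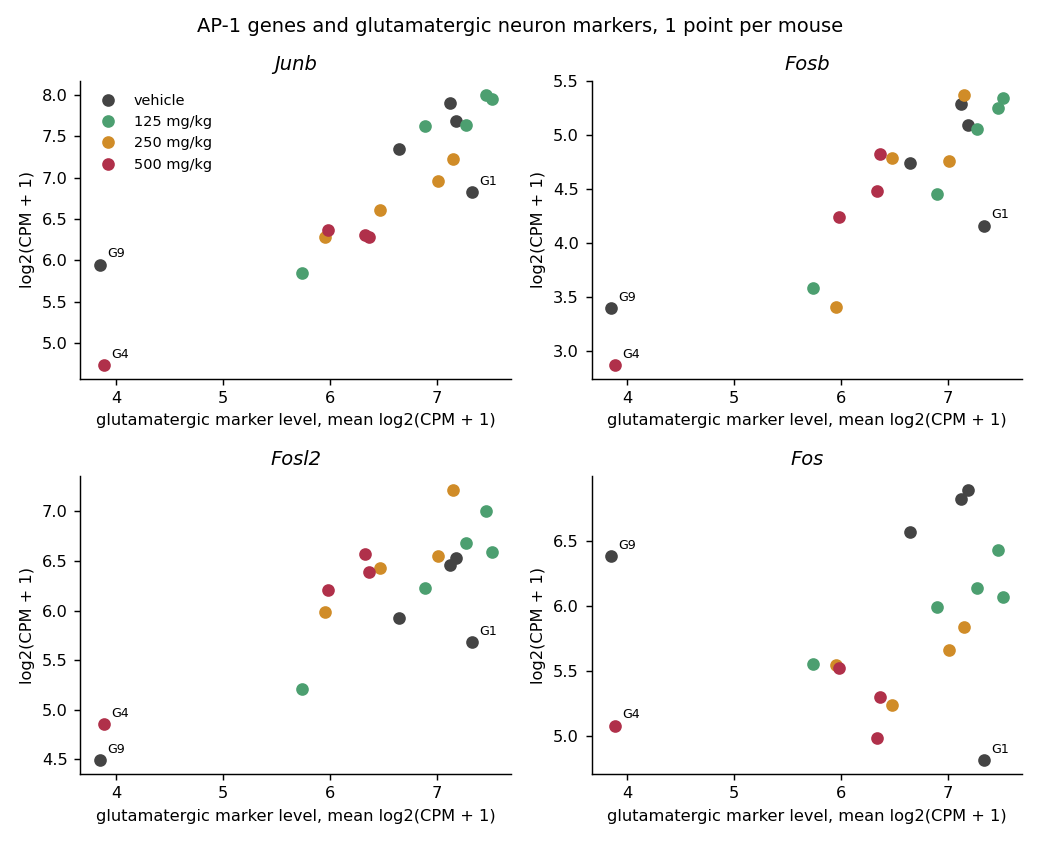
Level of Junb, Fosb, Fosl2 and Fos (log2 of CPM plus 1) against the mean level of 12 glutamatergic neuron markers on the same scale, 1 point per mouse, coloured by dose. Junb, Fosb and Fosl2 climb with the markers. Vehicle mouse G9 has 82.5 CPM of Fos at a marker level of 3.85. Mouse G4 at 500 mg/kg has 32.8 CPM of Fos at 3.89, and vehicle mouse G1 has 27.1 CPM at 7.33.

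**Figure D5:**
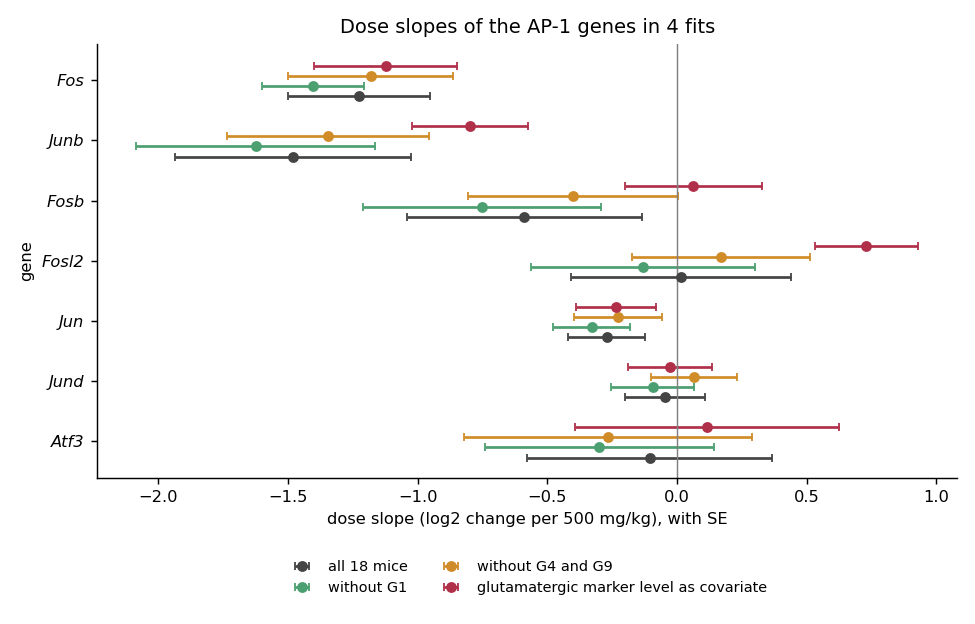
Dose slope (log2 change per 500 mg/kg) with its SE for the 7 tested genes in 4 edgeR fits: all 18 mice, without G1, without G4 and G9, and with the glutamatergic marker level as a covariate. Fos lies between -1.40 and -1.12 in all 4, while Fosb moves from -0.75 to 0.06 and Fosl2 from -0.13 to 0.73.

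Among the members themselves 21 pairs were compared. Over the same 16 mice 3 pairs had an adjusted p under 0.05 by both measures: Fosb with Fosl2 (r = 0.802, rho = 0.809, adjusted permutation p = 0.00357 and 0.00766), Fos with Junb (r = 0.769, rho = 0.774, adjusted permutation p = 0.00462 and 0.00766) and Fosb with Junb (r = 0.764, rho = 0.726, adjusted permutation p = 0.00367 and 0.0139). Fos with Jun had r = 0.640 and rho = 0.576 (adjusted permutation p = 0.0352 and 0.0919). Fosl2 with Junb had r = 0.547 and rho = 0.576 and did not pass (adjusted permutation p = 0.0922 and 0.0919). With all 18 mice Fosl2 with Junb passed by both measures (r = 0.716, rho = 0.697, adjusted permutation p = 0.00476 and 0.0125). So did Fos with Jun (adjusted permutation p = 0.00808 and 0.0293) and the 3 pairs above. Over all 18 mice r was 0.875 for Fosb with Fosl2 and 0.802 without the 2 mice farthest from the median of Fosb, 0.862 and 0.764 for Fosb with Junb, and 0.654 and 0.578 for Fos with Junb without the 2 farthest in Fos. For Fos with Jun it was 0.673 and, again without the 2 farthest in Fos, 0.441. Leaving out the mice farthest in a gene narrows its range, which can itself lower r. Within dose groups, over the 16 mice, r was 0.910 for Fosb with Fosl2, 0.857 for Fosb with Junb, 0.922 for Fosl2 with Junb, 0.633 for Fos with Junb and 0.603 for Fos with Jun. Over all 18 these were 0.942, 0.918, 0.956, 0.482 and 0.583. Samples share depth and tissue makeup across genes, and r of single genes with the total count was between -0.301 and 0.334.

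The genes most like each member over the 18 mice were named by Pearson's r of their log2 levels, as a description. For Fos they were Dusp1, a phosphatase that switches off MAP kinases (0.913), Ier2, another immediate early gene (0.909), and Btg2, an antiproliferative early gene (0.888). For Junb they were Nr4a1, an orphan nuclear receptor gene (0.984), Egr2, a zinc finger factor gene (0.952), and Mir212, a microRNA gene (0.948). For Fosb they were Egr1 (0.925) and Arc (0.915), which are activity-induced genes, and Pdzrn3 (0.912). For Fosl2 they were Tmem200a, Rtn4rl2 and Ankrd33b (0.897 to 0.904), for Jun Nfil3, Dusp1 and Hspa2 (0.700 to 0.764), for Jund Rnf187, Tmem109 and Taf10 (0.842 to 0.857), and for Atf3 Tmem183a, Rbis and Nkapd1 (0.714 to 0.785). The 3 genes most like Fos were chosen over all mice, G1 included, so that low values in G1, the vehicle mouse lowest in Fos, follow in part from that choice. Dusp1 stood at 47.4 CPM there and at 82.3 to 107 in the other 4 vehicle mice, Ier2 at 9.55 against 26.3 to 36.0, and Btg2 at 42.8 against 79.5 to 144. Nr4a1, the gene most like Junb, stood at 107 CPM in G1, within the 47.8 to 190.0 of the others.

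Of 27 other immediate early genes tested, 3 fell with dose, none rose and 24 did not pass in edgeR, and 26 had a negative slope, with a median of -0.79. Over all genes 0.0441% were called lower, 48.8% had a negative slope and the median was 0.01. The list was chosen with earlier results of these data known, so its counts beside these shares are a description. The 12 glutamatergic and 6 striatal neuron markers were also all negative, with medians of -1.12 and -1.67, and their part in these slopes was not tested. The 3 were Btg2 (slope -1.86 ± 0.305, adjusted p = 0.015), Dusp1 (-0.99 ± 0.195, adjusted p = 0.0361) and Ier2 (-1.47 ± 0.294, adjusted p = 0.0361), the same 3 that were most like Fos. Without G4 and G9 none of the 27 passed, 24 were negative and the median was -0.59, with Btg2 at -1.79 ± 0.348, Dusp1 at -0.94 ± 0.228 and Ier2 at -1.26 ± 0.320 (adjusted p = 0.132, 0.207 and 0.209). Fos itself, at -1.23, lay between Dusp1 and Ier2 in slope.

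The other genes of the pathway showed no call in edgeR. Of 9 tested partners that can pair with Fos or Jun proteins, 0 passed and 5 had a negative slope, with a median of -0.10. Mafk and Maff, small Maf proteins without an activation domain, had the largest slopes, 0.73 ± 0.175 (adjusted p = 0.0792) and 1.17 ± 0.323 (adjusted p = 0.137), and Jdp2, a repressor that pairs with Jun, had -0.38 ± 0.264 (adjusted p = 0.556). Of 19 kinases upstream, 0 passed and 13 were negative (median -0.14), with Map2k1, which encodes the kinase MEK1, at -0.41 and the chromatin kinase gene Rps6ka5 at -0.36 (adjusted p = 0.327 and 0.347). Of 17 factors that act on Fos and Jun promoters, 0 passed and 12 were negative (median -0.11). Mef2a, an activity-regulated factor, had -0.48 ± 0.138 (adjusted p = 0.154), Elk1, the SRF partner, -0.61 ± 0.202 (adjusted p = 0.207), and Stat3, a factor of cytokine signalling, 0.27 ± 0.094 (adjusted p = 0.233).

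Of 7 genes of Fos and Jun turnover 0 passed and 4 were negative (median -0.08). Zfp36l1 and Zfp36l2, which bind AU-rich elements and hasten the decay of early mRNAs, had -0.74 ± 0.210 and -0.53 ± 0.166 (adjusted p = 0.142 and 0.183), and Fbxw7, a ubiquitin ligase that marks Jun proteins for degradation, had -0.34 ± 0.180 (adjusted p = 0.437). Of 12 tested genes known as AP-1 targets, 0 passed and 8 were negative (median -0.23). Scg2, a secretory granule protein gene, had 0.84 ± 0.233 (adjusted p = 0.137), Mmp9, a matrix protease gene, 1.27 ± 0.420 (adjusted p = 0.207), and Vim, an intermediate filament gene, -0.58 ± 0.310 (adjusted p = 0.434). Of 6 heat shock genes 0 passed and 1 was negative (median 0.11), with Hspb1 at 0.55, Hspa8 at 0.17 and Hsph1 at 0.15 (adjusted p = 0.462 to 0.779). At an unadjusted p under 0.05 these 6 lists held 2 of 9, 3 of 19, 4 of 17, 2 of 7, 2 of 12 and 0 of 6 genes in the order given, against 13.2% of all genes tested, and DESeq2 and limma-voom calls were not counted for them.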

How the data were processed

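The authors prepared ribosomal RNA-depleted stranded libraries from 250 ng of RNA, aligned reads to GRCm38 with STAR 2.7.5b, counted them per gene with featureCounts, checked quality with MultiQC 1.12 and used DESeq2 1.34.0. The counts are raw counts per Entrez gene as deposited by the authors, with no other columns. The strand setting of the counting is not given in the sources used here. Symbols and positions were matched through RefSeq (GRCm38.p6) and GENCODE, whose exons gave the lengths.

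The 8 members, the 7 other gene lists and the 12 marker lists were chosen with earlier results of these data known. Counts were tested in R 4.3.3 with edgeR 4.0.16 (quasi-likelihood F test, TMM, filterByExpr with a minimum count of 10, 15863 genes), dose divided by 500 mg/kg, sex as covariate and Benjamini-Hochberg adjustment at 0.05 over all tested genes. Groups shared 1 estimate of the spread. SEs were derived from the F statistic, and correlations used log2(CPM + 1) with 100000 permutations, two-sided. Alternatives were DESeq2 1.42.0, limma-voom (limma 3.58.1), DESeq2 size factors, other filters, no sex covariate, marker level, tag number, dose as rank, dose groups or sexes left out, only the 2 groups compared, and each mouse left out. Leaving out G4 and G9 together, for members, lists and correlations, was chosen after seeing the data. Named pathway genes are those called and the 3 with the smallest p of at least 1 CPM in each list, and for likeness the 3 genes with the highest r. The result of 1 gene under this rule is not reported here. The tests were tried on simulated data with known changes. The limit given for Fosl1 covers counting error only.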

Additional observations from a re-analysis of the deposited data

Results flagged for a closer look

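Junb in mouse G4 (500 mg/kg, female) stood at 25.7 CPM, against 77.1, 77.9 and 81.8 CPM in the other 3 mice of its group. The gap to the nearest mouse was 0.916 of the group's whole range, above the 95% limit for 4 samples. The 7 tested genes in 4 groups gave 28 such comparisons, in which chance gives about 1.4, and this was the 1 found. G4 is also 1 of the 2 mice with a low glutamatergic marker level, and with it left out the Junb slope was -1.17.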

How the results depend on the processing

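Of 536 values recomputed under the alternatives, 483 kept their direction and their side of the threshold. The count of members called went from 0 to 1, Fos, with DESeq2 in the dose slope, at 500 mg/kg and for any difference among groups, and ran from 0 to 1 over the mice left out in the same 3 comparisons. The Fos slope was -1.23 with DESeq2 and ran from -1.40 to -1.06 over the mice left out.

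The genes whose sign turned had slopes near 0 or wide errors, and the cause was not tested. Over the mice left out, the dose slope ran from -0.16 to 0.35 for Fosl2, from -0.16 to 0.059 for Jund and from -0.30 to 0.13 for Atf3. The difference at 500 mg/kg ran from -0.090 to 0.38 for Fosl2, from -0.10 to 0.12 for Jund and from -0.44 to 0.013 for Atf3. In the other alternatives of the dose slope, Atf3 had 0.0049 with limma-voom, 0.12 with the marker covariate, 0.064 with dose as rank, 1.35 without the 500 mg/kg mice and 0.079 in females alone. Fosb had 0.064 with the marker covariate and 0.11 without the 500 mg/kg mice. Fosl2 had -0.0094 with the tag block, -0.51 without vehicle mice and -0.40 in females alone, and Jund had 0.0042 with the tag block, 0.12 in males alone and 0.064 without G4 and G9. At 500 mg/kg, Fosb had 0.042 and Jund 0.012 with the marker covariate, Fosl2 had -0.15 and Jund 0.18 with the tag block, and Jund had 0.13 without G4 and G9. At 125 mg/kg, Atf3 had -0.027 with only the 2 groups compared.

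Setting aside genes or mice also changes the adjustment over all genes. With the tag block no gene was called in the dose slope, and tag numbers and doses overlap little. Depth limits Fosl1 and Atf3 most. Mice of different groups share no G number, which leaves no pairs of mice, and the tag number was the block fitted.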
